A study of Mus musculus with 2 samples.

Results

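The 30 genes described here are 19 immediate early genes and 11 heat shock genes, found by their symbols among the 31053 features of 2 single-cell libraries. All 30 symbols were present in both libraries. The cells were leukocytes from subcutaneous tumours of B16-F10, a mouse melanoma line, grown in wild-type female C57BL/6 mice of 10 weeks, and 1 library came from mice given an agonist of OX40 and 1 from control mice. OX40 is a costimulatory receptor of activated T cells. Tumours were dissociated by mechanical and enzymatic digestion, and CD45-positive DAPI-negative cells were sorted and captured as 3′ droplet libraries. The number of mice behind each library, the antibody clone, its dose and its timing are not given in the labels. Each group is 1 library, so no difference below has a replicate check, and every interval covers counting error only.

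Immediate early genes are transcribed within minutes of a stimulus without new protein synthesis, and many encode transcription factors or feedback inhibitors whose RNAs decay quickly. Heat shock genes encode chaperones that hold, refold or degrade damaged proteins. Their inducible members are switched on when the factor Hsf1 is released by unfolded protein and binds inverted repeats of a short element, while the cognate members are transcribed in unstressed cells as part of ordinary protein folding. Both families are known to respond to tissue digestion as well as to signals in the tissue. Both libraries went through the same digestion, and its part in the levels was not tested.

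The clearest heat shock pattern below is that of Hspa1a and Hspa1b, the stress-inducible Hsp70 genes, so their upstream sequences are shown whole. Both lie on the minus strand of chromosome 17, and 9951 bases separate Hspa1b from Hspa1a. The 250 bases before each start, from the RefSeq promoter table on build GRCm38.p6, are chr17:34972157-34972406 for Hspa1a and chr17:34959239-34959488 for Hspa1b. Capitals mark a pair of facing heat shock units, GAANNTTC or TTCNNGAA on either strand.
Hspa1a: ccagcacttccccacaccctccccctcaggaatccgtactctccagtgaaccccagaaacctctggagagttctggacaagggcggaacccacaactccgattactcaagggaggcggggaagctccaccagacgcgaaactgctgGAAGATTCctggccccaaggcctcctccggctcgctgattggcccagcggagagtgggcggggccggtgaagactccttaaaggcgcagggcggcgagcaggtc
Hspa1b: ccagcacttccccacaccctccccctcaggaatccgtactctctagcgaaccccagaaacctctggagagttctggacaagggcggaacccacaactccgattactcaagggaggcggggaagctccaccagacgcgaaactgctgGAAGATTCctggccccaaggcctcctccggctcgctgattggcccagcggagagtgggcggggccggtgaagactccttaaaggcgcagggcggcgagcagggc
The windows carried the same base at 247 of 250 positions, and in both the match began 104 bases before the start. Over whole transcripts, 58.8% of the 50-base words of Hspa1a also occurred in Hspa1b. In the last 400 bases, where 3′ libraries place most reads, the share was 0% in both directions, but how reads that fit both genes were counted is not given in the labels. Values for either gene alone are therefore uncertain, and their sum is given beside them.

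Promoter windows were found for 25 of the 30 genes, 17 immediate early and 8 heat shock. A facing pair of heat shock units was present before 7 of the 8 heat shock genes and 2 of the 17 immediate early genes, against 14.5% of all 27025 genes in the table. The 30-base stretches holding it are shown for genes that recur below: Hspb1 (chr5:135887801-135887830, plus strand), Hsph1 (chr5:149636351-149636380, minus strand), Dnaja1 (chr4:40722333-40722362, plus strand), Hspe1 (chr1:55088053-55088082, plus strand) and the immediate early gene Jun (chr4:95052332-95052361, minus strand).
Hspb1: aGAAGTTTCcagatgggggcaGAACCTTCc
Hsph1: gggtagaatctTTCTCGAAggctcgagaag
Dnaja1: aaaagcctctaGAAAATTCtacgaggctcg
Hspe1: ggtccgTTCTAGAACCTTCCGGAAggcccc
Jun: ggcccagagaaGAATCTTCtagggtgaggt
Capitals again mark the units. The Hspe1 stretch lies between the divergent starts of Hspd1 and Hspe1 and is shared by both. It was also the only one among the heat shock genes with 3 alternating units, a form present before 0.514% of all genes. Dnajb1 had no match in its windows, which says only that these letters are not there.

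For the immediate early genes, matches to the CArG box, the site of serum response factor, were present before Egr2 and Zfp36, against 1.62% of all genes. The cAMP response element TGACGTCA was present before Btg2, Dusp1 and Ppp1r15a, against 1.77% of all genes. The AP-1 site TGANTCA occurred in none of the 25 genes' windows and in those of 7.82% of all genes. The stretches shown for them, with the match in capitals, are Zfp36 (chr7:28379267-28379296, minus strand), Egr2 (chr10:67537787-67537816, plus strand), Dusp1 (chr17:26508597-26508626, minus strand) and Btg2 (chr1:134079303-134079332, minus strand).
Zfp36: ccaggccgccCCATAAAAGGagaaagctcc
Egr2: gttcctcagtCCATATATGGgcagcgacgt
Dusp1: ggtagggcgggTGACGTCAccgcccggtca
Btg2: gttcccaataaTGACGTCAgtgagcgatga
These matches describe the sequence and were not tested as binding sites.

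The OX40 agonist library held 8569 barcodes and 118059108 UMIs (unique molecular identifiers, 1 per captured RNA molecule), and the control library 7187 barcodes and 114026695 UMIs. After filters on depth, mitochondrial share and doublet score, 7050 and 6031 cells remained, and per-cell marker gates assigned them to 11 classes with at least 50 cells in each library. Mononuclear phagocytes were split into cells with high complement C1q genes (1852 cells in the OX40 agonist library and 1399 in the control library), cells with Arg1 and low C1q (204 and 177) and monocytes (785 and 733). The other classes were neutrophils (146 and 50), the dendritic cell classes cDC1 (86 and 59), cDC2 (133 and 101) and mature migratory DCs (442 and 237), CD8 T cells (1191 and 1538), regulatory T cells (273 and 166), NK cells (270 and 264) and melanoma cells (609 and 438). Melanoma cells were present although the sort was for CD45, and their level of Ptprc, the CD45 gene, was 3.24 CPM in the OX40 agonist library and 8.05 CPM in the control library. Median depth ran from 1558 UMIs per neutrophil to 65345 per melanoma cell in the OX40 agonist library, and from 1830 to 71123 in the control library. Both libraries held 18 barcodes in common, of which 12 were kept. Levels are in CPM, UMIs of a gene summed over a class and scaled so that every class has the same total.

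Immediate early levels, as a share of all RNA of a class, were highest in the myeloid neutrophils and mononuclear phagocytes and in NK cells. The summed level of the 19 genes was highest in neutrophils, at 22981 CPM in the OX40 agonist library and 19083 CPM in the control library. Arg1-positive C1q-low phagocytes followed with 11678 and 12720 CPM, then monocytes with 11293 and 11233 CPM, NK cells with 9697 and 9690 CPM and C1q-high phagocytes with 8656 and 9296 CPM. Melanoma cells were lowest, with 2020 and 2576 CPM. C1q-high phagocytes, the largest of the high classes, held 35.6% of all immediate early UMIs of the OX40 agonist library and 31.4% of those of the control library, while holding 22.8% and 20.8% of the UMIs of all kept cells. Neutrophils, few and shallow, held 1.47% of immediate early UMIs in the OX40 agonist library and 0.602% in the control library. Melanoma cells, the deepest class, held 14.0% and 12.5%, against 38.4% and 29.9% of the UMIs of all kept cells.

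**Figure D1:**
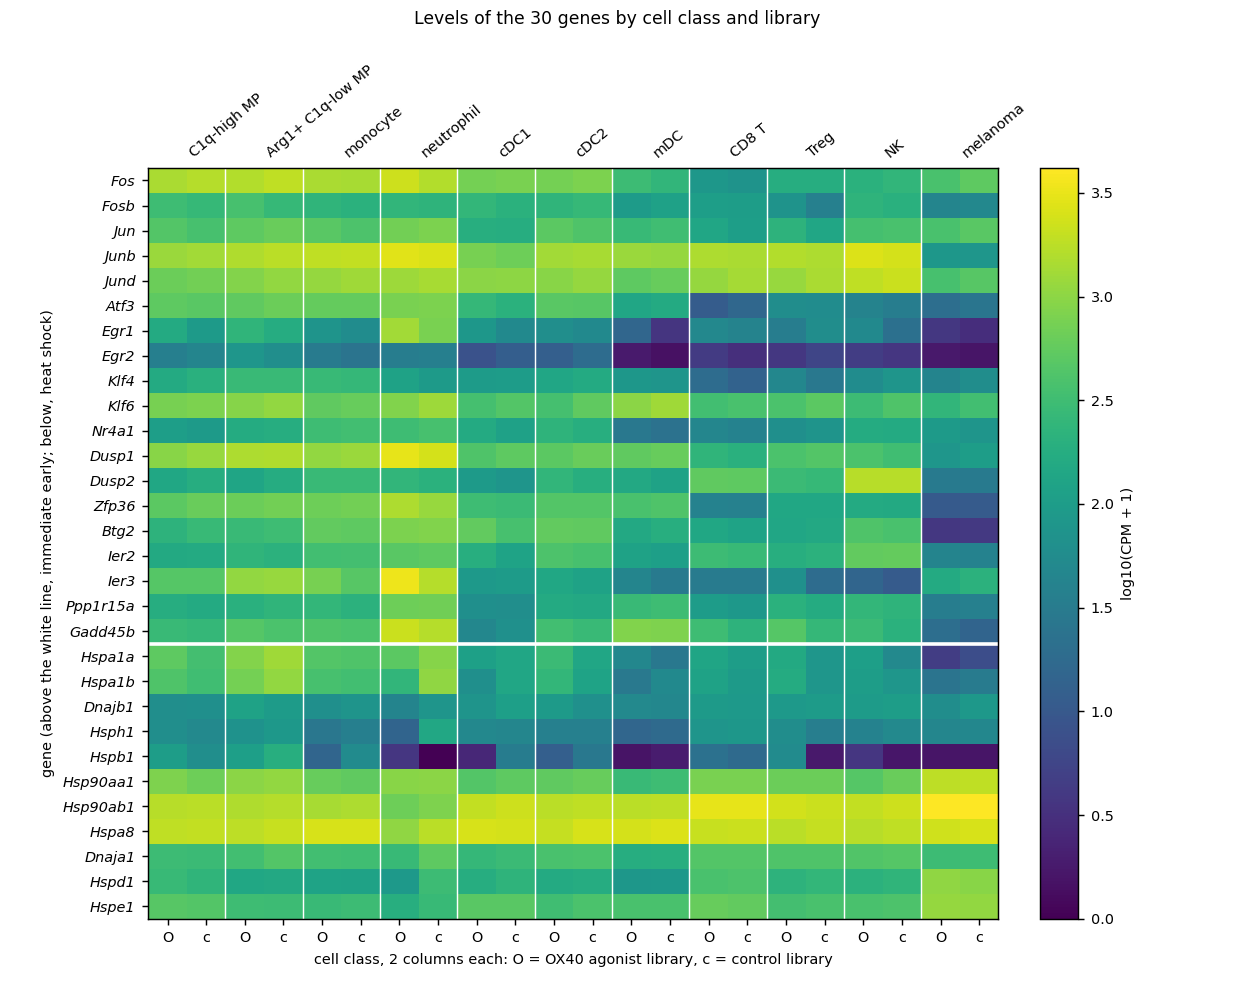
Level of each of the 30 genes as log10(CPM + 1) (colour) in 11 cell classes, with the OX40 agonist library (O) left of the control library (c) in each class; MP, mononuclear phagocyte. Most immediate early genes are brightest in neutrophils and phagocytes and darkest in melanoma cells, and Hsp90ab1, Hspd1 and Hspe1 are brightest in melanoma cells.

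Among the AP-1 subunits, which pair to form a DNA-binding dimer, Fos and Jun followed the myeloid pattern, while Junb was also high in NK cells. Fos was at 2209 CPM in neutrophils and 1439 CPM in C1q-high phagocytes of the OX40 agonist library, and at 1601 and 1641 CPM in those of the control library. CD8 T cells were lowest for Fos, with 82.0 CPM in the OX40 agonist library and 71.7 CPM in the control library. Junb reached 2872 CPM in neutrophils and 2671 CPM in NK cells of the OX40 agonist library, and 2590 and 2431 CPM in those of the control library, against 81.3 and 79.4 CPM in melanoma cells. CD8 T cells thus stood near the bottom for Fos while their Junb was at 1498 CPM in the OX40 agonist library and 1460 CPM in the control library. Jund was highest in NK cells, at 1864 and 2146 CPM. Atf3, a stress-induced repressor of the same family, was at 785 and 795 CPM in neutrophils and at 528 and 496 CPM in C1q-high phagocytes, but at 10.3 and 15.1 CPM in CD8 T cells. Jun was at 705 and 795 CPM in neutrophils and at 140 and 107 CPM in CD8 T cells, its lowest class. Fosb was at 372 and 263 CPM in Arg1-positive phagocytes and at 43.3 and 47.4 CPM in melanoma cells, and in the control library its highest class was cDC2 with 268 CPM.

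The zinc finger and nuclear receptor factors differed more sharply between classes. Egr1, the prototype factor of growth signalling, was at 1316 CPM in neutrophils of the OX40 agonist library and 790 CPM in those of the control library. It was at 161 and 92.3 CPM in C1q-high phagocytes and at 2.89 and 2.02 CPM in melanoma cells. Egr2, its relative, was highest in Arg1-positive phagocytes with 78.8 and 61.4 CPM. Klf4, a factor of monocyte differentiation, was highest in the same cells with 279 and 284 CPM. Klf6, a Krüppel-like factor of activated cells, was highest in mature migratory DCs with 973 and 1251 CPM. Nr4a1, an orphan nuclear receptor induced by antigen receptor signals, was at 315 and 372 CPM in neutrophils and 308 and 330 CPM in monocytes, and at 45.3 and 39.0 CPM in CD8 T cells.

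Feedback regulators divided into a neutrophil set and an NK set. Dusp1, a phosphatase of stress kinases, was at 3057 CPM in neutrophils of the OX40 agonist library and 2462 CPM in those of the control library. Zfp36, which marks inflammatory RNAs for decay, was at 1506 and 1142 CPM there and at 9.63 and 9.87 CPM in melanoma cells. Ier3, a short-lived survival regulator, was at 3356 and 1652 CPM in neutrophils and at 14.3 and 10.1 CPM in NK cells, the widest range of the 30 genes in both libraries on the log2 scale after adding 10 CPM. Gadd45b, an activator of stress kinases, was at 2151 and 1637 CPM in neutrophils and 861 and 819 CPM in mature migratory DCs. Btg2, an antiproliferative cofactor of RNA decay, was at 815 and 862 CPM in neutrophils and at 2.84 and 2.98 CPM in melanoma cells. Ppp1r15a, which restores translation after stress, was at 672 and 678 CPM in neutrophils and 33.0 and 36.4 CPM in melanoma cells. Dusp2, a phosphatase of ERK in lymphocytes, was instead highest in NK cells, with 1675 and 1696 CPM against 542 and 532 CPM in CD8 T cells. Ier2, a short nuclear regulator, was likewise highest in NK cells with 561 and 589 CPM.

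The order of the 11 classes was close between the libraries for the immediate early genes, with a Spearman correlation over classes from 0.83 for Fosb to 0.99 for Atf3, Nr4a1, Dusp1, Zfp36 and Ier2. Classes of 1 library share its handling and depth, so this is a description. Among the heat shock genes it ran from 0.28 for Hsph1 to 0.96 for Hsp90ab1, with 0.55 for Dnajb1, 0.58 for Hspb1 and 0.60 for Dnaja1.

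Shares of cells with a UMI followed the levels once every cell was thinned to 1000 UMIs. Junb was seen in 91.7% (95% Clopper-Pearson interval 85.2 to 95.9) of neutrophils of the OX40 agonist library and 88.6% (75.4 to 96.2) of those of the control library, and in 8.21% and 8.03% of melanoma cells. Without thinning, the melanoma shares were 81.3% and 73.5%, at several times the depth of the other classes. Fos was seen in 62.9% of C1q-high phagocytes of the OX40 agonist library and 66.1% of those of the control library, and in 8.23% and 7.17% of CD8 T cells. Zfp36 was seen in 39.4% and 44.4% of C1q-high phagocytes and in 1.17% and 1.46% of melanoma cells. No class is known to lack these genes, so no share was read as the background from free RNA.

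The heat shock genes as a sum had another order of classes, though Hspa1a and Hspa1b, given below, were highest in phagocytes. The summed level of the 11 genes was highest in melanoma cells, at 10867 CPM in the OX40 agonist library and 11045 CPM in the control library, and that class held 50.5% and 41.1% of the heat shock UMIs of all kept cells against 38.4% and 29.9% of their UMIs. Hsp90ab1, Hspd1, Hspe1 and the inducible Hsp90aa1 were each highest in melanoma cells in both libraries. The cognate cytosolic genes Hspa8 and Dnaja1 were highest in other classes. Hsp90ab1, the constitutive Hsp90, was at 4136 and 4168 CPM in melanoma cells, 3080 and 3037 CPM in CD8 T cells and 672 and 836 CPM in neutrophils. Hspd1 and Hspe1, the mitochondrial chaperonin and its lid, were at 1047 and 950 CPM and at 1103 and 1071 CPM in melanoma cells. In mature migratory DCs Hspd1 was at 81.0 and 83.8 CPM. Hspa8, the constitutive Hsc70, varied least, between 1045 CPM in neutrophils and 2528 CPM in cDC1 of the OX40 agonist library, and between 1733 CPM in neutrophils and 2694 CPM in mature migratory DCs of the control library. Dnaja1, a co-chaperone of Hsp70, was at 452 and 444 CPM in CD8 T cells and at 179 and 186 CPM in mature migratory DCs.

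**Figure D2:**
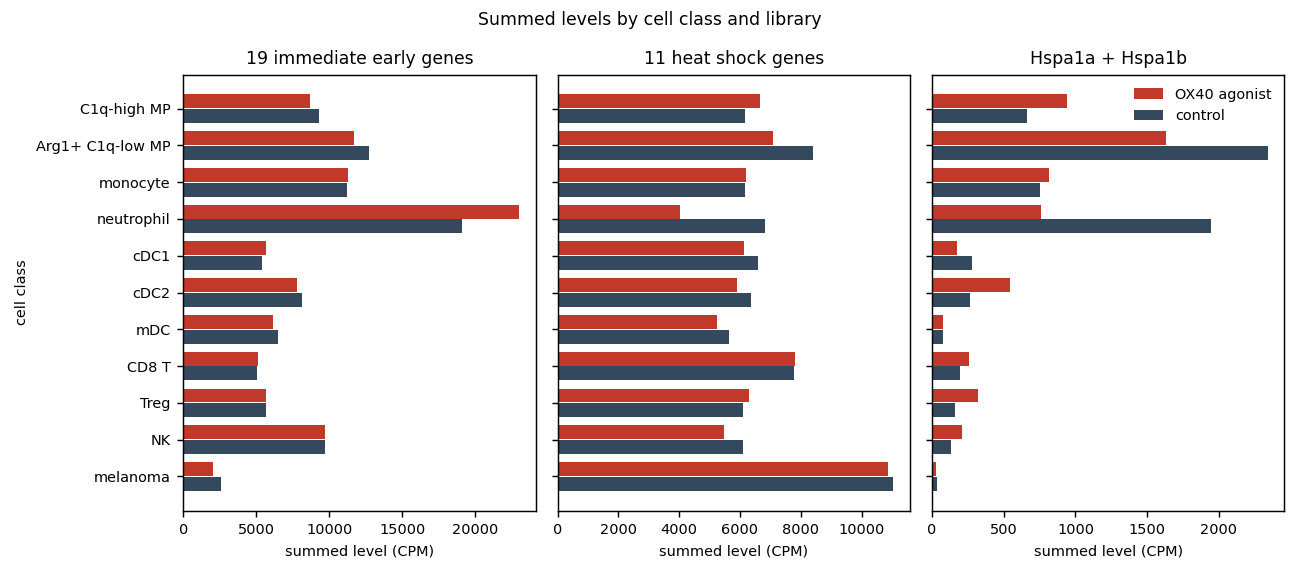
Summed level in CPM (x axis) of the 19 immediate early genes, the 11 heat shock genes and Hspa1a with Hspa1b in each cell class, with the OX40 agonist library above the control library; MP, mononuclear phagocyte. Immediate early levels peak in neutrophils, heat shock levels in melanoma cells, and the Hspa1a and Hspa1b sum in Arg1-positive phagocytes.

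Of the inducible genes, Hsp90aa1, the inducible Hsp90, was also highest in melanoma cells, at 1838 CPM in the OX40 agonist library and 1865 CPM in the control library. Hspa1a and Hspa1b were not. Their sum was highest in Arg1-positive C1q-low phagocytes, at 1633 and 2339 CPM, and lowest in melanoma cells, at 27.1 and 37.2 CPM. C1q-high phagocytes were at 944 and 665 CPM, monocytes at 812 and 756 CPM, CD8 T cells at 257 and 197 CPM and mature migratory DCs at 73.7 and 77.7 CPM. Hspb1, a small heat shock protein, was at 109 and 184 CPM in Arg1-positive phagocytes and under 1 CPM in melanoma cells and mature migratory DCs. Dnajb1, the Hsp40 that partners Hspa1a, and Hsph1, its nucleotide exchange factor, were low in every class, at no more than 120 CPM and 148 CPM.

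Within the C1q-high class, clusters made without the 30 genes showed where these cells lay. A cluster led by Inhba, Arg1, Egln3 and Nos2 held 11.8% of the C1q-high cells of the OX40 agonist library and 10.7% of those of the control library. Its Hspa1a and Hspa1b sum was 1688 and 1343 CPM, and its summed immediate early level was 12147 and 11343 CPM, the highest of the clusters with at least 50 C1q-high cells in each library. In a cluster led by Cxcl9, Flt1 and Ly6i the Hspa1a and Hspa1b sum was 174 and 228 CPM, with immediate early levels of 9185 and 9036 CPM. The members were not used to make these clusters, but genes that move with them were.

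Few cells held most of the Hspa1a, Hspa1b and Hspb1 RNA. The 10% of C1q-high phagocytes with most Hspa1a and Hspa1b UMIs held 77.7% of them in the OX40 agonist library and 84.3% in the control library. The same share of CD8 T cells held 98.6% and 96.7%, and 1020 of 1191 and 1246 of 1538 cells had none. For Hspb1 every UMI lay in the top 10% of either class in both libraries. Where under 10% of cells have a UMI this is fixed in advance, and 6.91% and 5.08% of C1q-high phagocytes had an Hspb1 UMI. The other inducible heat shock genes were less concentrated, with 68.3% of Hsph1 UMIs in the top 10% of C1q-high phagocytes of both libraries, 51.3% of Dnajb1 UMIs in the OX40 agonist library and 47.3% in the control library, and 41.8% and 40.3% of Hsp90aa1 UMIs. The immediate early genes Fos, Junb and Dusp1 were spread over more cells. For Fos in C1q-high phagocytes the top 10% of cells held 35.3% and 34.6%, for Junb 29.1% and 28.8%, and for Dusp1 31.5% and 29.8%. The cognate Hsp90ab1 resembled these, with 31.3% and 30.6%. The share in the top 10% also rises as a gene's level falls, and genes were not compared at equal level.

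**Figure D3:**
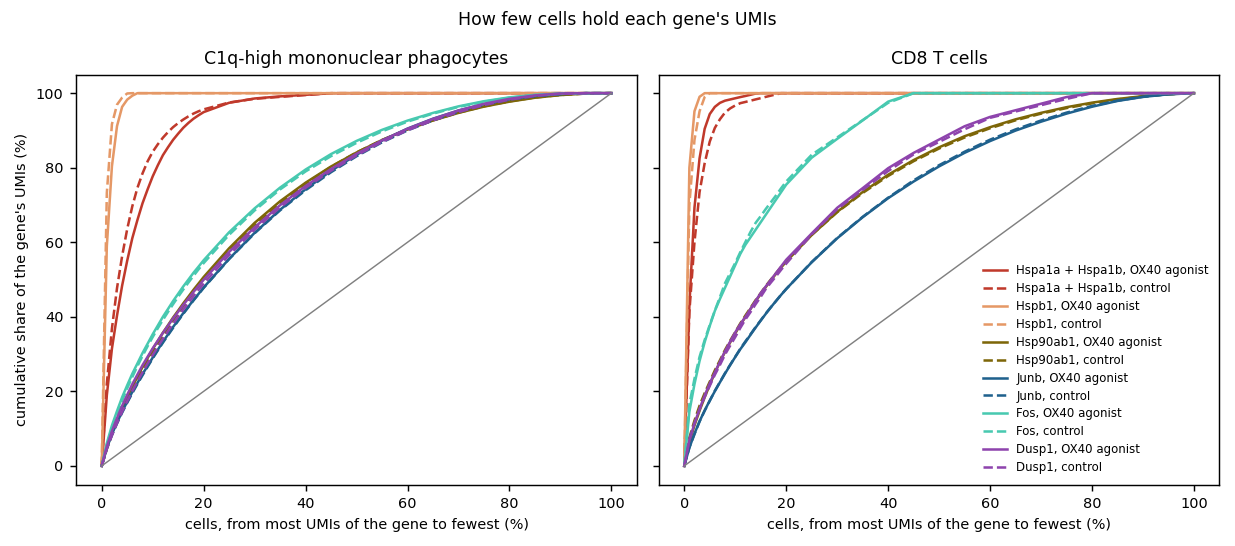
Cumulative share of a gene's UMIs (y axis, %) against the share of cells, taken from most UMIs to fewest (x axis, %), in C1q-high phagocytes and CD8 T cells; solid lines, OX40 agonist library; dashed lines, control library; the diagonal is equal UMIs in every cell. The lines of Hspa1a with Hspa1b and of Hspb1 climb to nearly all UMIs within a small share of cells, while those of Junb, Dusp1 and Hsp90ab1 lie between them and the diagonal, with 28.8% to 31.5% of UMIs in the top 10% of C1q-high phagocytes.

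Cells with at least 1000 CPM of Hspa1a and Hspa1b within the cell, and at least 5 such UMIs, were counted as high. In C1q-high phagocytes 343 cells were high in the OX40 agonist library, or 18.5% (16.8 to 20.4), and 187 in the control library, or 13.4% (11.6 to 15.3). They held 92.5% and 88.9% of the class's Hspa1a and Hspa1b UMIs. Arg1-positive phagocytes had 40 of 204 and 38 of 177 high cells, monocytes 59 of 785 and 74 of 733, CD8 T cells 55 of 1191 and 78 of 1538, and melanoma cells 0 of 609 and 1 of 438. For melanoma cells of the OX40 agonist library the exact upper bound is 0.604%. High is a range and not a cell type, since 133 and 104 C1q-high phagocytes lay between 500 and 2000 CPM. High cells and cells with none had like depth in C1q-high phagocytes, with medians of 8751 and 9798 UMIs in the OX40 agonist library and 10704 and 11081 in the control library. Their median mitochondrial shares were 3.14% and 3.39% in the OX40 agonist library and 2.94% and 2.96% in the control library.

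In phagocytes and CD8 T cells the other heat shock genes went with Hspa1a and Hspa1b cell by cell, including those that did not follow them across classes. In C1q-high phagocytes of the OX40 agonist library 8 of the 9 other heat shock genes were more than 1.5-fold higher in high cells than in cells with none, against 2.66% of all genes measured, and in the control library 9 of 9, against 3.02%. For CD8 T cells 8 of 9 were so in the OX40 agonist library, against 1.81% of all genes, and 8 of 9 in the control library, against 2.47%. High cells were defined by Hspa1a and Hspa1b, so these shares describe cells and are no test. Hspb1 was at 480 CPM in high C1q-high phagocytes and 25.2 CPM in those with none in the OX40 agonist library, a ratio of 19.1 (16.9 to 21.6), and at 420 and 19.4 CPM in the control library, a ratio of 21.6 (18.6 to 25.3). In CD8 T cells its ratio was 39.0 in the OX40 agonist library and 36.7 in the control library. Hsph1 was 8.33 and 10.5 times as high in high C1q-high phagocytes, Dnajb1 3.51 and 3.88 times, Hsp90aa1 3.72 and 3.93 times and Dnaja1 3.23 and 3.72 times. The mitochondrial pair was nearer 2, with 1.80 and 1.91 for Hspd1 and 1.89 and 1.93 for Hspe1. Hspa8 was at 1.74 and 1.76, and Hsp90ab1 at 1.38 and 1.51.

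**Figure D4:**
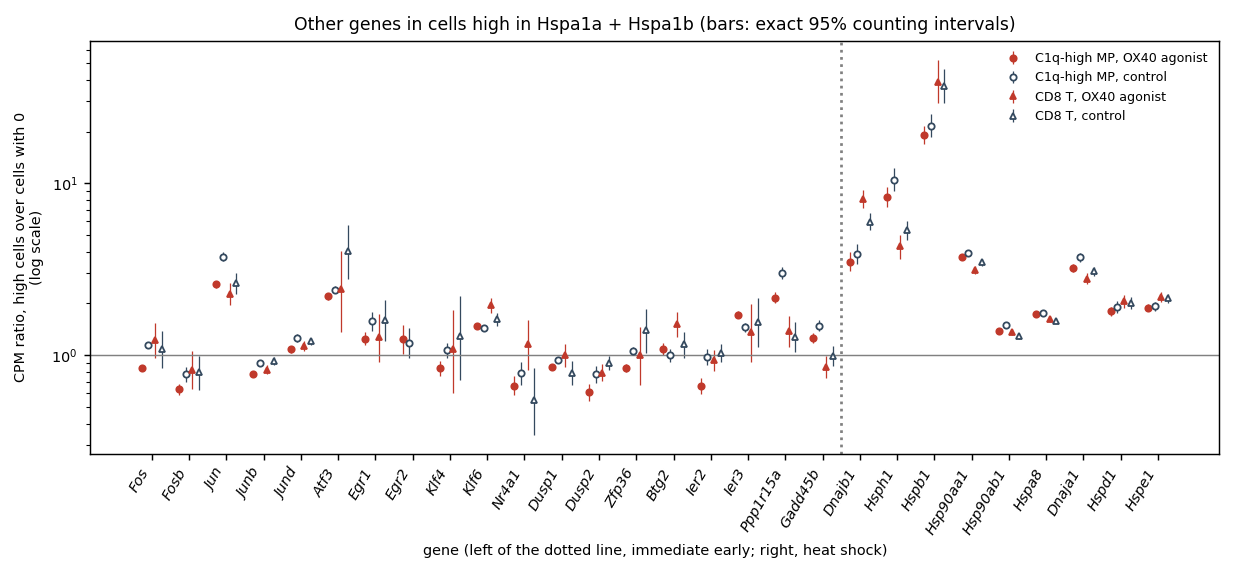
CPM in cells high in Hspa1a and Hspa1b over CPM in cells with none (y axis, log scale) for the other 28 genes, in C1q-high phagocytes (circles) and CD8 T cells (triangles) of the OX40 agonist library (red, filled) and the control library (dark, open); bars are exact 95% counting intervals, and points with under 3 UMIs in high cells are left out. Heat shock genes lie above 1 in both classes and libraries, and among immediate early genes Jun and Atf3 lie above 1.5 in each.

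A smaller share of the immediate early genes went with them, and how many differed by class. In C1q-high phagocytes 4 of 19, or 21.1%, were past 1.5-fold higher in high cells of each library, against the 2.66% of all genes in the OX40 agonist library and 3.02% in the control library. They were Jun, Atf3, Ppp1r15a and Ier3 in the OX40 agonist library, where Fosb and Dusp2 were past it lower, and Jun, Atf3, Ppp1r15a and Egr1 in the control library. In CD8 T cells 3 of 18 measured, or 16.7%, were past it higher, against 1.81% and 2.47% of all genes, and in both libraries these were Jun, Atf3 and Klf6. In Arg1-positive phagocytes 7 of 19 were past it higher in the OX40 agonist library and 11 of 19 in the control library, against 8.01% and 8.65% of all genes. In monocytes the counts were 11 and 6 of 19, against 8.87% and 5.31%. All 9 other heat shock genes were past it higher in both of these classes in both libraries. Jun was the most regular, at 821 CPM in high and 316 CPM in zero C1q-high phagocytes of the OX40 agonist library, and at 954 and 254 CPM in those of the control library. Its ratio in CD8 T cells was 2.28 (1.97 to 2.62) in the OX40 agonist library and 2.63 (2.29 to 3.02) in the control library. Atf3 was 2.20 and 2.41 times as high in C1q-high phagocytes and 2.42 and 4.04 times in CD8 T cells. Ppp1r15a was at 295 CPM in high and 136 CPM in zero C1q-high phagocytes of the OX40 agonist library, and at 385 and 128 CPM in those of the control library. Fos had ratios of 0.848 and 1.14 in C1q-high phagocytes, Junb 0.774 and 0.900, and Fosb 0.633 and 0.773. Jun and Atf3 were past 1.5-fold higher in high cells of all 4 classes in both libraries. Fos was past it in high Arg1-positive phagocytes, with ratios of 1.51 in the OX40 agonist library and 1.81 in the control library, and in high monocytes of the OX40 agonist library, with 1.69 against 1.45 in the control library.

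Lists of related genes that are not members are set against the same shares of all genes, 2.66% in the OX40 agonist library and 3.02% in the control library. Of 31 other cytosolic chaperone genes, 30 of them found in the files, 4 of 29 measured, or 13.8%, were past 1.5-fold higher in high C1q-high phagocytes of the OX40 agonist library, namely Bag3, Hspa4l, Dnajb4 and Ahsa1, and 3 of 28, or 10.7%, in the control library. None of 5 other mitochondrial chaperone genes was past it in either library. Of 16 endoplasmic reticulum chaperone genes 2 were past it in the OX40 agonist library, Ddit3 and Hspa5, and 3 in the control library. Of 30 other immediate early genes 5 of 27 measured, or 18.5%, and 5 of 26, or 19.2%, were past it, led by Rhob.

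Correlations over cells thinned to 5000 UMIs are given as a description of cells that share a library. In C1q-high phagocytes (1536 cells of the OX40 agonist library and 1232 of the control library) the Hspa1a and Hspa1b sum had a Pearson r of 0.58 and 0.55 with the other inducible heat shock genes and of 0.09 and 0.15 with the immediate early sum. In CD8 T cells (953 and 1362) the values were 0.40 and 0.44, and 0.04 and 0.04. Over pairs of genes in C1q-high phagocytes the median r was 0.26 and 0.25 within the heat shock genes, 0.15 and 0.18 within the immediate early genes and -0.0083 and -0.00035 between them. In mature migratory DCs the immediate early sum had an r of 0.26 and 0.21 with Hspa1a and Hspa1b, about the same as that of Hspa1a and Hspa1b with the other inducible genes, at 0.26 and 0.16. With the cognate cytosolic and mitochondrial genes the r of Hspa1a and Hspa1b was 0.13 and 0.17 there. In melanoma cells it was 0.15 and 0.27 with the other inducible genes, and 0.03 and 0.16 with the cognate ones.

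The genes outside the 30 whose levels went most closely with each family also differed. Mitochondrial, ribosomal protein, Gm, Rik, T cell receptor and immunoglobulin genes were left out before ranking and are not in the number ranked. Among 2391 genes at 50 CPM or more in mononuclear phagocytes of both libraries, those most like the immediate early sum were Mcl1, a survival factor (r of 0.44 in the OX40 agonist library and 0.48 in the control library), the kinase Pim1 (0.45 and 0.47), the NF-κB inhibitor Nfkbia (0.40 and 0.43), H3f3b and Cebpb. Those most like Hspa1a and Hspa1b were AC160336.1, a long noncoding RNA gene at chr14:44544055-44637201 on the minus strand (0.43 and 0.42), the small GTPase gene Rhob (0.41 and 0.43), the heme oxygenase gene Hmox1 (0.29 and 0.35), the glucose transporter gene Slc2a1 (0.26 and 0.32) and Sap30. In CD8 T cells the nearest to the immediate early sum were Btg1, Nfkbia, Malat1, Cd52 and H2-K1, and the nearest 3 to Hspa1a and Hspa1b were Phlda1 (0.20 and 0.20), Klf2 and Mt1. All r values for CD8 T cells were below 0.4.

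Between the OX40 agonist and control libraries, most of the 30 genes differed little within a class. Log2 ratios below are of the OX40 agonist library over the control library after adding 10 CPM to each, for genes at 10 CPM or more in either, and a gene is past 1.5-fold when its ratio on that scale is. Over the 11 classes 12 of 201 immediate early values were past it higher and 2 lower, and 10 of 116 heat shock values higher and 13 lower, where 2.22% of all gene values were past it higher and 4.91% lower. Of the 13 lower heat shock values 7 came from neutrophils, where 28.8% of all genes were past it lower. With every cell thinned to 1000 UMIs the immediate early values past it lower were 16. The share of all gene values past it was not recomputed after thinning, so the 16 cannot be set against the 4.91%. Jund and Klf6 were lower in the OX40 agonist library in all 11 classes, by small amounts, with log2 ratios from -0.38 to -0.08 for Jund and from -0.59 to -0.12 for Klf6. Egr1 and Gadd45b were higher in 10 of 11 classes, the exceptions being regulatory T cells for Egr1 and cDC1 for Gadd45b. That count was made without the 10 CPM floor, and Egr1 in melanoma cells was below it, at 2.89 and 2.02 CPM. How many of all genes had the same sign in 10 or 11 classes was not counted. Classes of a library share its handling, so these signs are not separate observations and are given as a description.

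**Figure D5:**
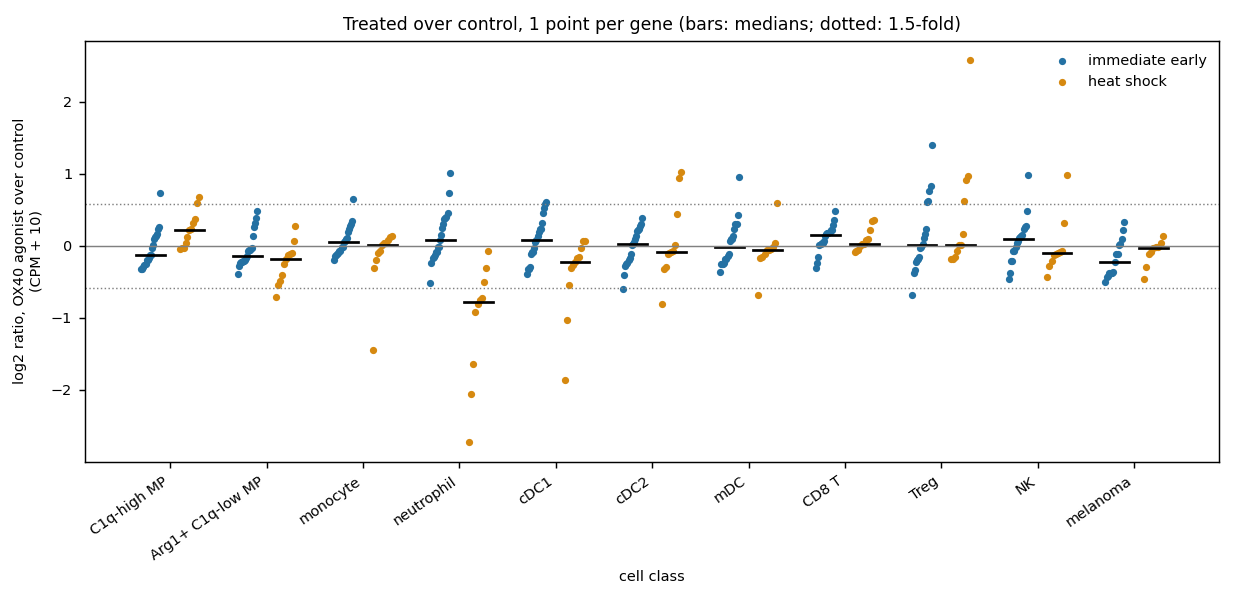
Log2 ratio of the OX40 agonist library over the control library, after adding 10 CPM (y axis), for each measured immediate early gene (blue) and heat shock gene (orange) in 11 cell classes; black bars are list medians and dotted lines mark 1.5-fold. Medians lie between -0.22 and 0.22 in every class, except -0.77 for heat shock genes in neutrophils.

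In C1q-high phagocytes the immediate early median was -0.12 and the heat shock median 0.22, with a median of 0.01 over all 7132 genes tested. Past 1.5-fold higher were 3 of the 30 genes, Egr1, Hspa1a and Hspb1, where 0.715% of all genes were, and none were past it lower, where 1.22% were. Hspa1a, with a log2 ratio of 0.59, was close to the limit and fell short of it in 5 of the alternatives given at the end. Egr1 and Hspb1 fell short in 1 each, with 50 CPM added. Egr1 was at 161 CPM in the OX40 agonist library and 92.3 CPM in the control library, a ratio of 1.74 (1.65 to 1.84). The Hspa1a and Hspa1b sum was 944 CPM in the OX40 agonist library and 665 CPM in the control library, a ratio of 1.42 (1.39 to 1.45). The make-up of the class also moved, since a cluster led by Gas6, Fcrls and Igf1 held 20.9% of its cells in the OX40 agonist library and 2.79% in the control library. In the 7 clusters with at least 50 C1q-high cells in each library, Egr1 was higher in the OX40 agonist library in 6, and the Hspa1a and Hspa1b sum and the share of high cells in 5.

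Arg1-positive phagocytes ran the other way for the heat shock genes, with a median of -0.19 against -0.14 for the immediate early genes and 0.01 over all genes. Hspb1 was past 1.5-fold lower, where 1.95% of all genes were, and none of the 30 was past it higher, where 2.00% were. It was at 109 CPM in the OX40 agonist library and 184 CPM in the control library, but a single cell held 32.3% of its UMIs in the OX40 agonist library and 50.6% in the control library. Without the cell with most Hspa1a and Hspa1b UMIs of each library its log2 ratio turned to 0.23. The Hspa1a and Hspa1b sum had a ratio of 0.698 (0.663 to 0.735). In monocytes the medians were 0.05 and 0.02, and Ier3 was past 1.5-fold higher, where 0.136% of all genes were, at 756 CPM in the OX40 agonist library and 478 CPM in the control library. Hspb1 was past it lower, where 0.273% were, at 14.1 and 55.6 CPM.

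Neutrophils gave the widest differences and the least certain, with 146 cells in the OX40 agonist library and 50 in the control library. The heat shock median was -0.77 and the immediate early median 0.08, against -0.21 over all 7871 genes. Of 10 measured heat shock genes 7 were past 1.5-fold lower, namely Hspa1a, Hspa1b, Dnajb1, Hsph1, Hspa8, Dnaja1 and Hspd1, where 28.8% of all genes were. Egr1 and Ier3 were past it higher, where 12.9% were. Ier3 was at 3356 CPM in the OX40 agonist library and 1652 CPM in the control library, but its log2 ratio turned to -0.13 with classes taken from clusters. The Hspa1a and Hspa1b sum was 757 and 1942 CPM, and 28.6% of its UMIs in the control library lay in 1 cell. A single cell held most Hspd1 UMIs of control neutrophils. The 5 high neutrophils of the control library had a median of 6751 UMIs, against 1649 for its neutrophils with none. All 5 melanoma markers were detected in neutrophils of the OX40 agonist library at a sum of 381 CPM, and 4 of 5, without Tyr, in those of the control library at 867 CPM, and their part in the result was not tested.

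Among the dendritic cells, Btg2 was past 1.5-fold higher in cDC1, where 1.65% of all genes were, at 564 CPM in the OX40 agonist library and 368 CPM in the control library. Hspa1b and Hspb1 were past it lower there, where 7.29% were, with Hspa1b at 63.4 and 140 CPM. With every cell weighted equally the Hspa1b log2 ratio turned to 1.39. The 10 mononuclear phagocyte markers summed to 791 CPM in cDC1 of the OX40 agonist library and 2648 CPM in those of the control library, and their part was not tested. In cDC2, Hspa1a and Hspa1b were past it higher, where 1.88% were, with a sum of 543 and 263 CPM, but 1 cell held 51.5% of that sum in the OX40 agonist library. Without the 1% of cells with the highest share of their UMIs in the 30 genes, the log2 ratios turned to -0.10 for Hspa1a and -0.44 for Hspa1b. Klf6, at 357 and 543 CPM, and Hspb1, at 11.4 and 27.3 CPM, were past it lower in cDC2, where 5.22% were, and the Hspb1 ratio turned to 1.10 without the cell with most Hspa1a and Hspa1b UMIs. In mature migratory DCs, Egr1 was past it higher at 14.5 CPM in the OX40 agonist library and 2.62 CPM in the control library, where 0.517% of all genes were. Hspa1a was also past it higher there and Hspa1b lower, where 0.790% were, and their sum had a ratio of 0.949 (0.782 to 1.15). With classes from clusters the log2 ratio of Hspa1a turned to -0.43.

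Among CD8 T cell values none of 29 measured genes was past 1.5-fold in either direction, where 0.0430% of all 6973 genes were past it higher and 0.115% lower. Of 18 measured immediate early genes 15 had ratios above 1, and the median was 0.15, with -0.03 over all genes. The heat shock median was 0.03, and high cells were 4.62% of CD8 T cells in the OX40 agonist library and 5.07% in the control library. Regulatory T cells had the most values past 1.5-fold, with 9 of 29 measured genes higher, where 1.72% of all genes were. The list medians were near those of all genes, at 0.006 for the immediate early and 0.009 for the heat shock genes, against -0.03. The immediate early genes past it higher were Fosb, Jun, Klf4, Ier3 and Gadd45b, and the heat shock ones Hspa1a, Hspa1b, Hsph1 and Hspb1. Under the alternatives given at the end, Hsph1 fell short of 1.5-fold in 7, Jun in 5, and Klf4 and Fosb in 4 each. Hspa1b fell short in 3 and Ier3 in 1, while Gadd45b, Hspa1a and Hspb1 stayed past it in all. Jun was at 216 CPM in the OX40 agonist library and 137 CPM in the control library, and Fosb at 70.4 and 37.3 CPM, though the Fosb log2 ratio turned to -0.33 with classes from clusters. Gadd45b was at 469 CPM in the OX40 agonist library and 260 CPM in the control library, a ratio of 1.80 (1.59 to 2.05). Ier3 was at 63.6 and 17.9 CPM, a ratio of 3.56 (2.26 to 5.84). The Hspa1a and Hspa1b sum was at 323 and 159 CPM, with 1 cell holding 26.0% of it in the OX40 agonist library and 32.4% in the control library. Hspb1 had 97 UMIs in the OX40 agonist library and 1 in the control library, a ratio of 70.2 (12.3 to 2802), and 1 cell held 67.0% of the 97. Egr1 was past it lower, where 1.74% of all genes were, at 33.2 and 59.1 CPM.

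NK cells had Egr1 past 1.5-fold higher, at 51.1 CPM in the OX40 agonist library and 20.9 CPM in the control library, and Hspa1a, at 108 and 49.9 CPM, where 1.72% of all genes were. A single cell held 46.3% of the Hspa1a UMIs of the OX40 agonist library. None was past it lower, where 2.67% of all genes were. In melanoma cells none of 24 measured genes was past 1.5-fold in either direction, where 0.0128% of all 7824 genes were past it higher and 1.06% lower, and the immediate early median was -0.22 against 0.03 over all genes.

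Of the gene lists that are not members, none had a gene past 1.5-fold between the libraries in C1q-high phagocytes, monocytes or CD8 T cells. Across those classes 0.0430% to 0.715% of all genes were past it higher and 0.115% to 1.22% lower. In neutrophils 7 of 28 measured other cytosolic chaperone genes were past it lower, among them Cacybp and Cdc37, and 2 higher. Of all genes there, 28.8% were past it lower and 12.9% higher, so neither count stood out. The median of these chaperone genes was -0.26, close to the -0.21 of all genes.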

How the data were processed

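The authors deposited UMI counts per gene and barcode, made with Cell Ranger on mm10 per the submitters' processing notes, with matrix software 3.1.0 per the file headers. How reads fitting several genes were handled is not stated there. Barcodes with at least 500 UMIs, 200 genes and at most 10% mitochondrial UMIs were kept, and the highest doublet scores (scanpy 1.11.5) were removed at 0.8% per 1000 barcodes, because the automatic threshold marked 0.0128% of OX40 agonist and 0% of control barcodes. Marker gates per 10000 UMIs gave the classes, and 272 and 282 mixed and 262 and 217 ungated cells were left out of them. The members and lists were chosen with earlier results of these data known. UMIs were summed per class and compared as CPM with exact 95% Poisson, ratio or Clopper-Pearson intervals, which cover counting error only. There was no test, since each group is 1 library. Called means past 1.5-fold after adding 10 CPM, in genes at 10 CPM or more in either library. All 30 members were accounted for, and those past 1.5-fold with at least 30 UMIs are named. Shares used cells thinned to 1000 UMIs and correlations cells thinned to 5000. Leiden clusters (leidenalg 0.10.2) left out the members. Code was tested on simulated data. Python 3.11.15, numpy 2.4.6, scipy 1.17.1 and pandas 2.3.3 were used. Alternatives are given at the end. Egr1 and 4 other members have no promoter shown here. Of the 5 genes nearest to Hspa1a and Hspa1b in CD8 T cells, only the first 3 are reported here.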

Additional observations from a re-analysis of the deposited data

Results flagged for a closer look

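Egr1, Hspa1a, Hspa1b and Hspb1 were past 1.5-fold in opposite directions in different classes. Values are log2 ratios of the OX40 agonist library over the control library after adding 10 CPM, each from 1 library per group, and the differences between classes were not tested. Egr1 was at 0.74 in C1q-high phagocytes, 0.73 in neutrophils, 0.96 in mature migratory DCs and 0.98 in NK cells, and at -0.68 in regulatory T cells. Hspa1a was at 0.59 in C1q-high phagocytes, 1.03 in cDC2, 0.60 in mature migratory DCs, 0.92 in regulatory T cells and 0.98 in NK cells, and at -0.80 in neutrophils. Hspa1b was at 0.95 in cDC2 and 0.97 in regulatory T cells, and at -2.06 in neutrophils, -1.03 in cDC1 and -0.69 in mature migratory DCs. Hspb1 was at 0.68 in C1q-high phagocytes and 2.58 in regulatory T cells, and at -0.70 in Arg1-positive phagocytes, -1.44 in monocytes, -1.86 in cDC1 and -0.80 in cDC2. Some of these values changed sign under an alternative given below. They were Hspb1 in Arg1-positive phagocytes, Hspa1b in cDC1, Hspa1a in mature migratory DCs, and Hspa1a, Hspa1b and Hspb1 in cDC2. Egr1 fell short of 1.5-fold in 3 alternatives in regulatory T cells, its only lower class here, and in 4 in neutrophils.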

How the results depend on the processing

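The list medians, the counts past 1.5-fold, 35 gene and class pairs and the class with the highest level of each gene were recomputed under 14 alternatives; clusters gave no counts and no highest class. Other values, such as concentration, ratios of high cells and correlations, were not. Nor were the shares of all genes past 1.5-fold, so the counts below have no such share beside them. Leaving out the cell with most Hspa1a and Hspa1b UMIs per class and library, or shared barcodes, was chosen after seeing the data, as were limits of 500 and 2000 CPM for high cells. High C1q-high phagocytes were 22.1% in the OX40 agonist library and 17.0% in the control library at 500 CPM, and 14.96% and 9.58% at 2000 CPM. High CD8 T cells were 5.63% and 6.37% at 500 CPM, and 3.36% and 3.38% at 2000 CPM. Of the 35 pairs, 6 stayed past 1.5-fold under every alternative run: Ier3 and Hspb1 in monocytes, Hspa1b in neutrophils, and Gadd45b, Hspa1a and Hspb1 in regulatory T cells. The cause of the changes below was not tested. The heat shock median in C1q-high phagocytes was 0.13 with cells weighted equally, 0.12 thinned and 0.14 with 50 CPM added. In cDC1 it was -0.023 from clusters, -0.013 with cells weighted equally and 0.051 thinned, and in CD8 T cells 0.076 thinned. The immediate early median was -0.024 in monocytes from clusters and 0.39 in cDC1 with cells weighted equally. In melanoma cells it was -0.081 without removal by doublet score, -0.17 from clusters, -0.14 with cells weighted equally, -0.10 with 50 CPM added and -0.11 without the low filter. With 50 CPM added 5 immediate early values were past 1.5-fold higher, 0 lower, and 6 heat shock values higher. Immediate early values past it lower were 16 thinned, 6 with cells weighted equally, and 1 each without doublet removal, centred on all genes and without shared barcodes. Heat shock values past it higher were 5 without the top 1% of cells and 6 without the top cell. Signs turned for Hspb1 in Arg1-positive phagocytes (0.20 without the top 1% of cells, 0.23 without the top cell) and in cDC2 (1.11 and 1.10). They turned from clusters for Ier3 in neutrophils (-0.13), Hspa1b in cDC1 (0.073), Hspa1a in mature migratory DCs (-0.43) and Fosb in regulatory T cells (-0.33). Hspa1b in cDC1 was also at 1.39 with cells weighted equally and 1.12 thinned, and Fosb in regulatory T cells at -0.33 thinned. Without the top 1% of cells Hspa1a in cDC2 was at -0.10 and Hspa1b at -0.44. Clusters gave no value for Arg1-positive phagocytes or cDC2, since no cluster was mostly of either. No paired analysis was possible because each group is 1 library.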

Other observations

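In melanoma cells, which held few immediate early UMIs for their depth, the genes most like the immediate early sum among 2684 at 50 CPM or more were Malat1 (Pearson r of 0.37 in 565 cells of the OX40 agonist library and 0.28 in 368 of the control library) and Phlda1 (0.32 and 0.30). The same kinds of genes were left out of this ranking as for phagocytes. Cells of 1 library share its handling, so these are descriptions.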
